A study of Triticum turgidum with 12 samples.

Results

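The comparison described here sets the pale-green durum wheat mutant MD-597 (M) against its wild-type (WT), the variety Borgia, in flag leaves at anthesis under terminal water stress. It was formed by the titles of the samples, as the 3 arrays of the mutant and the 3 of the wild-type under stress, 6 of the 12 arrays in the series. M was derived by sodium azide mutagenesis of Borgia and backcrossing to it, and is 1 line, so the pale-green mutation cannot be told apart from any other difference that this line carries. Plants grew in pots in a glasshouse, in a split plot with water treatments as main plots and genotypes as subplots. The 4 groups were WT control and M control, kept at field capacity throughout, and WT water stress and M water stress, with irrigation cut from booting (Zadoks stage 45) onward. Each replicate was a pool of flag leaves of 5 plants hybridized to 1 Affymetrix Wheat Genome Array. The labels do not tie replicate numbers to plots, and p-values measure only the spread between these pools. Because whole leaves were used, fewer cells of a type and less RNA per cell cannot be told apart.

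Terminal drought reaches the flag leaf, the main source of sugars for the grain, while it still photosynthesizes. Abscisic acid (ABA) signaling then closes stomata, light-harvesting and carbon fixation genes are usually turned down, and sugars, fructans and amino acids are moved from storage and structural pools. Plasma membrane aquaporins set how readily water passes between leaf cells. A pale-green leaf absorbs less light, and for this reason genes of the photosynthetic apparatus, of pigment synthesis and of carbon use were followed here beside those that the comparison itself picked out.

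Values are MAS5 intensities, 1 for each of 61290 probe sets and array, given on the log2 scale, so that a difference of 1 is 2-fold. Low probe sets were left out: those retained had to lie above the 60th percentile of the array in every replicate of 1 group or more, and 24590 did. Genes were called induced or repressed in M at a Benjamini-Hochberg adjusted p under 0.05 in limma, over all kept probe sets, with at least a 2-fold difference. The arrays carry green leaf transcripts on all 6 stress arrays, with the chlorophyll a/b binding protein LHB1B2 (Ta_3249_3_A1_at) between 12.16 and 14.29 and the Rubisco small subunit between 9.67 and 12.43. Gene names are mostly those of the closest Arabidopsis gene as listed by the study, and roles given below are known from Arabidopsis or other plants. Probe sets ending in _x_at, _s_at or _a_at may also read close copies, so their values are less certain as to the gene, and all probe set names are printed with _ in place of dots.

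Some sequences from the qRT-PCR primer set of the study show which transcripts these are. They are printed 5′ to 3′ for the only gene of the 10 with primers that was called under stress, the germin-like protein GLP2b, and for the reference gene actin, with no part in capitals because no site within them is compared.
GLP2b forward: ggtcagacccaccaatatcagatga
GLP2b reverse: aactcaaccgtgtccttcacttgtg
Actin forward: gttccgttgccctgaggtcctt
Actin reverse: tgagccaccactgagcacaatgtta
The actin probe set Ta_28253_1_S1_at read 14.77, 15.15 and 14.75 in WT water stress replicates 1, 2 and 3 and 14.88, 14.94 and 15.05 in M water stress. Its arrays overlapped, with a difference of 0.06 (SE 0.10, limma, adjusted p = 0.796).

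The genotypes differed under water stress at 174 probe sets, or 0.708% of those kept. Of these, 62 were induced in M (0.252%) and 112 were repressed (0.455%). On every one of the 174 all arrays of one genotype lay beyond all arrays of the other, but so did 19.0% of kept probe sets. The median difference of the induced probe sets was 1.22, the largest 3.80, and that of the repressed ones was -1.21, the largest -3.51. Over all kept probe sets the median was 0.01, with 52% of values higher in M. At least 4-fold differences were found for 14, of which 6 were induced and 8 repressed. Called probe sets were spread over the whole range of intensity, with 0.992% of those at a mean under 7, 0.653% between 7 and 9, 0.755% between 9 and 11 and 0.594% at 11 and over. In 25 of the 174, 13 induced and 12 repressed, the lower group was under the 60th percentile on all its arrays, and the size of these differences is not firm. With 32 added to each intensity before the logarithm, 42 of the 62 and 96 of the 112 were still called.

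**Figure D1:**
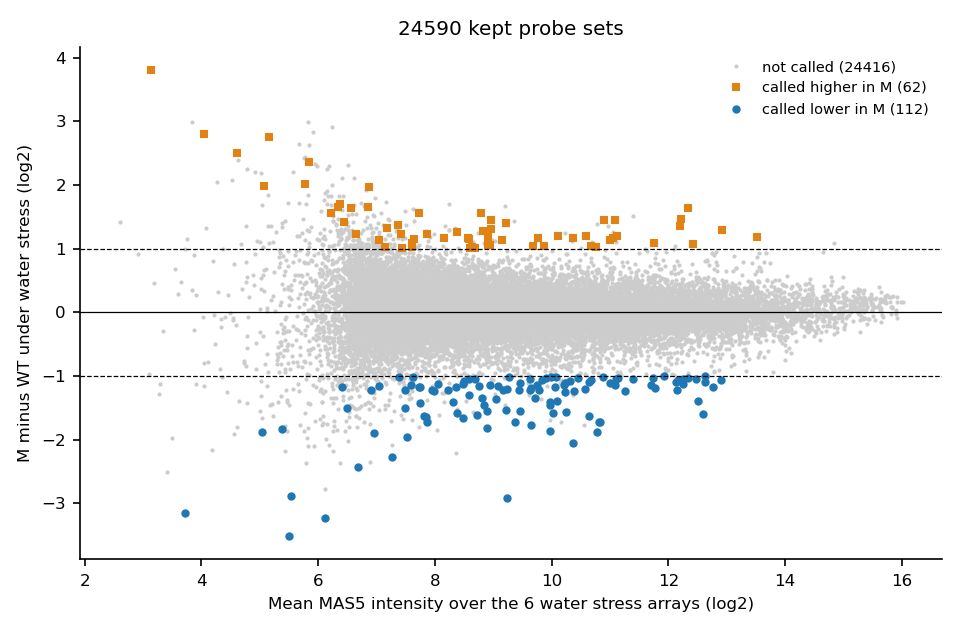
M minus WT under water stress (log2, vertical axis) against the mean MAS5 intensity over the 6 water stress arrays (log2, horizontal axis), 1 point for each of 24590 kept probe sets. Orange squares are the 62 probe sets induced in M and blue circles the 112 repressed, and dashed lines mark 2-fold. Calls occur at all intensities, and the differences beyond 3 on either side belong to probe sets with a mean under 7.

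Aquaporin transcripts were higher in M under stress. Aquaporins of the plasma membrane (PIP2 type) form pores for water. Their 3 probe sets all had higher values in M, with a median difference of 1.35. Of these, 2 were called, beside 0.252% of all kept called higher. PIP2;2 on TaAffx_8804_1_S1_s_at read 11.12, 11.99 and 11.49 on WT replicates 1, 2 and 3 and 12.85, 12.91 and 12.88 on M replicates 1, 2 and 3. The M arrays were nearly level and stood above every WT array, by 1.35 (SE 0.17, adjusted p = 0.00312), a 2.55-fold difference. On TaAffx_8804_3_S1_s_at the WT arrays read 7.77, 8.71 and 8.23 and the M arrays 9.78, 10.17 and 9.08, again without overlap, for a difference of 1.44 (SE 0.29, adjusted p = 0.0210). PIP2;5 on TaAffx_8804_2_S1_at read 11.11, 12.35 and 12.16 in WT and 13.31, 12.89 and 12.68 in M. It stood apart too but fell just short of the test, with 1.09 (SE 0.27, adjusted p = 0.0501). All 3 probe set names share a number, that of a transcript cluster in the design of the array, and are not independent genes. The call of TaAffx_8804_1_S1_s_at held without any single array. That of TaAffx_8804_3_S1_s_at was lost without WT water stress replicate 1 or 3 or M water stress replicate 1 or 2 (adjusted p up to 0.0801), whereas PIP2;5 was called without WT water stress replicate 2 or M water stress replicate 3 (adjusted p down to 0.0211). Under control the genotype differences of PIP2;2 were 0.11 and 0.20. Stress minus control for PIP2;2 was -2.93 in WT and -1.69 in M on the first probe set, and -3.38 and -2.14 on the other. The study chose this list for its stress response on these same arrays, and it reports PIP2;2 and PIP2;5 as induced in M under water stress. The higher values are therefore no independent evidence.

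Of the fructan and starch genes, sucrose:fructan 6-fructosyltransferase and 1 of 2 chloroplast beta-amylase probe sets were induced in M, and a vacuolar invertase was repressed. Sucrose:fructan 6-fructosyltransferase, which builds the branched fructans stored by wheat, read 12.70, 12.69 and 11.42 in WT and 13.54, 13.72 and 13.43 in M on Ta_2789_2_S1_at. WT replicate 3 was the lowest, and no WT array reached an M array. The difference was 1.30 (SE 0.27, adjusted p = 0.0265), against -0.39 under control, and was lost without WT water stress replicate 3 or M water stress replicate 1 or 2 (0.87 at the least, adjusted p up to 0.0891). The probe sets of the same cluster number gave 1.63 (Ta_2789_2_S1_x_at, adjusted p = 0.0128) and 1.46 (Ta_2789_1_S1_a_at, adjusted p = 0.0153, and 0.0544 without M water stress replicate 2), while Ta_2789_1_S1_at with 1.51 was not called (adjusted p = 0.0552). On Ta_2789_1_S1_a_at, stress minus control was -0.84 in WT and 1.14 in M. Sucrose:sucrose 1-fructosyltransferase, the enzyme that starts fructan chains, was 0.78 higher (Ta_2788_1_A1_at, adjusted p = 0.0973) and was not called.

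Chloroplast beta-amylase (CT-BMY), which releases maltose from starch, read 7.23, 5.36 and 5.49 in WT and 7.28, 7.69 and 8.04 in M on TaAffx_68872_1_S1_at. WT replicate 1 nearly reached M replicate 1, and the call (1.65, SE 0.40, adjusted p = 0.0446) was lost in 11 of the 12 fits that each left out 1 array (adjusted p up to 0.162). The other CT-BMY probe set, Ta_16135_1_A1_at, gave 0.44 (adjusted p = 0.273). A further probe set with the cluster number of the called one and no gene name, TaAffx_68872_3_S1_x_at, had -1.04 (adjusted p = 0.304), its M arrays all below its WT arrays. The starch breakdown list, chosen by the study on these same arrays, had 1 call among its 4 probe sets, beside 0.252% of all kept called higher. The alpha-amylase AMY1 had -0.67 (adjusted p = 0.182). Disproportionating enzyme DPE2, which uses that maltose in the cytosol, passed the test at less than 2-fold (0.60, adjusted p = 0.0217). The vacuolar invertase BFRUCT3, which splits sucrose, read 9.77, 9.63 and 9.19 in WT and 8.43, 7.36 and 7.98 in M. All M arrays were below all WT arrays, with a difference of -1.61 (SE 0.36, adjusted p = 0.0341), against -0.53 under control. It was lost without any 1 of the WT water stress arrays, M water stress replicate 2 or WT control replicate 2 (adjusted p up to 0.118). The 17 carbohydrate probe sets that the study lists as stress-modulated in both genotypes had a median difference of 0.01, with 0 called by limma and 4 at an unadjusted p under 0.05. That median was between -0.07 and 0.12 without single stress arrays.

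Photosynthesis and pigment genes had higher values in M as a list, but only 1 of its 16 kept probe sets was called, beside 0.252% of all kept called higher. The study chose this list for stress responses that differed between the genotypes on these same arrays. The called one was LHB1B2 on Ta_3249_3_A1_at, an antenna protein of photosystem II, at 12.16, 13.50 and 13.10 in WT and 14.29, 13.96 and 14.07 in M. Here WT replicate 1 was lowest and the M arrays lay close together, for a difference of 1.18 (SE 0.26, adjusted p = 0.0315). That call was lost without WT water stress replicate 1 or 3, M water stress replicate 1 or 2 or WT control replicate 1 or 2 (adjusted p up to 0.0887). The other 4 LHB1B2 probe sets gave 0.95 to 1.04 and were not called. In all, 15 of the 16 had higher and 1 had lower values in M, with a median of 0.91, beside 0.01 over all kept probe sets and 0.04 for the list under control. Past the test at under 2-fold were the chloroplast ATP synthase subunit ATPD (0.82, adjusted p = 0.0124, and 0.62, adjusted p = 0.0192), glutamyl-tRNA reductase HEMA1, the entry to chlorophyll synthesis (Ta_3243_1_S1_x_at, 0.79, adjusted p = 0.0419), and DXS, the entry to plastid isoprenoids such as carotenoids (0.87, adjusted p = 0.0490).

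The arrays of this list were uneven, and so were its calls. WT replicate 1 was the lowest WT array for 13 of the 16 probe sets and WT replicate 2 the highest for 14. The Rubisco small subunit Ta_20830_1_A1_at, the carbon-fixing enzyme's nuclear part, read 9.67, 11.14 and 10.87 in WT and 12.43, 11.16 and 11.39 in M, so that the groups were parted by a narrow gap, and its 1.10 was not called (adjusted p = 0.130). The Rubisco large subunit, encoded in the plastid, had a value of -1.62 (adjusted p = 0.147) and was the 1 lower member. Without WT water stress replicate 1 the median of the list was 0.63 and 0 were called, and without WT water stress replicate 2 it was 1.13 and 6 were called. Without M water stress replicate 3, 3 were called higher and 1 lower. The call was also lost, leaving 0, without WT water stress replicate 3, M water stress replicate 1 or 2 or WT control replicate 1 or 2. Early light-induced protein ELIP1, a pigment-binding protein of light stress, had 1.38 and 1.36 (adjusted p = 0.290 and 0.140). The carotenoid enzyme PSY had 0.52. All 5 probe sets of chloroplast transcription and translation had higher values, with a median of 0.53 (0.27 without WT water stress replicate 1), among them the plastid chromosome protein PTAC16 at 0.53 (adjusted p = 0.0542), and 0 were called by limma, with 1 at an unadjusted p under 0.05.

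**Figure D2:**
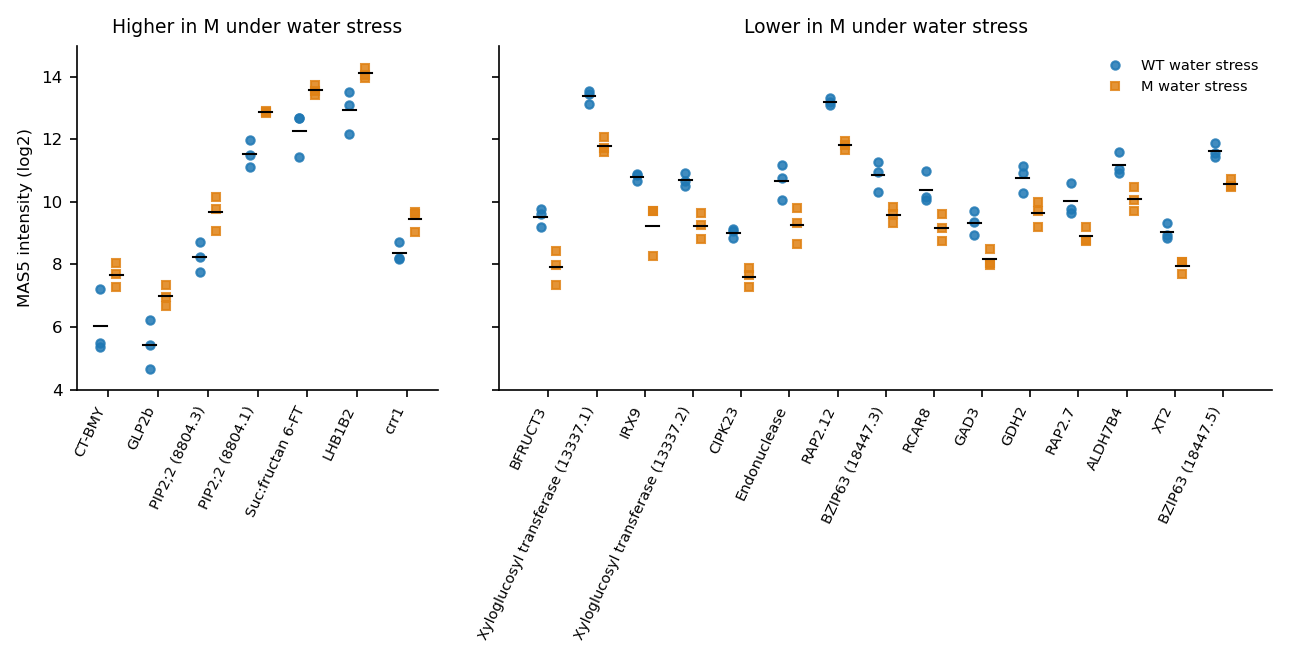
MAS5 intensity (log2, vertical axis) of the 22 named probe sets called under water stress, 1 point per array, with WT water stress as blue circles, M water stress as orange squares and black bars for the mean of 3 arrays. The groups do not overlap on any of them, but the gap is narrow for CT-BMY and wide for RAP2.12.

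A pair of further named genes was induced. GLP2b, a germin-like protein of the cell wall and the gene of the primers printed above, read 4.67, 5.42 and 6.22 in WT and 6.97, 6.67 and 7.34 in M on Ta_169_1_S1_x_at. The groups did not overlap, and the difference was 1.56 (SE 0.38, adjusted p = 0.0482), but with 32 added it was 1.05 (adjusted p = 0.0797), and the call was lost in 9 of the 12 fits without 1 array (adjusted p up to 0.158). It was 1.85 higher in M under control as well. The gene named crr1 is listed by the study as a putative dihydrodipicolinate reductase. It read 8.19, 8.73 and 8.22 in WT and 9.61, 9.68 and 9.04 in M. Both sets of arrays stood apart, with a difference of 1.06 (SE 0.24, adjusted p = 0.0362), a call lost in 8 of the 12 fits (adjusted p up to 0.133).

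Cell wall genes were repressed in M under stress. Of 12 kept probe sets of the cellulose synthesis list 5 were called lower, beside 0.455% of all kept. Lower values were found for 11, and the median was -0.88, against -0.03 under control. The study chose this list for stress responses that differed between the genotypes on these same arrays. Its direction is therefore no independent evidence. Xyloglucan:xyloglucosyl transferases cut and rejoin the xyloglucan that ties cellulose fibers together. Ta_13337_1_S1_at read 13.56, 13.46 and 13.14 in WT and 12.06, 11.59 and 11.71 in M. Every M array was more than 1 unit below every WT array, for -1.60 (SE 0.25, adjusted p = 0.00772), a 3.03-fold difference, and the call held without any single array. Ta_13337_2_S1_at of the same cluster number read 10.92, 10.51 and 10.68 in WT and 9.66, 9.25 and 8.83 in M, or -1.46 (SE 0.29, adjusted p = 0.0200, up to 0.0767 without WT water stress replicate 1 or 3 or M water stress replicate 2), while Ta_13337_2_S1_x_at at -1.20 did not pass (adjusted p = 0.0984).

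IRX9, a xylosyltransferase of xylan synthesis in secondary walls, read 10.68, 10.89 and 10.86 in WT and 9.69, 9.72 and 8.28 in M. M replicate 3 was far below the other M arrays. The difference of -1.58 (SE 0.30, adjusted p = 0.0179) was -1.10 without that array and was still called, but it was lost without WT water stress replicate 3 (adjusted p = 0.0716). The xyloglucan xylosyltransferase XT2 read 8.93, 8.84 and 9.32 in WT and 8.09, 7.69 and 8.08 in M (-1.08, SE 0.22, adjusted p = 0.0238). ATCSLC12, a glucan synthase thought to make the xyloglucan backbone, read 10.41, 10.50 and 10.59 in WT and 9.33, 9.37 and 9.74 in M (-1.02, SE 0.13, adjusted p = 0.00373). Neither gene had an M array that reached the WT arrays. Ta_29111_1_A1_s_at, which has the cluster number of the XT2 probe set and no gene name, gave -0.03 (adjusted p = 0.966). XT2 was lost without WT water stress replicate 1 or 3 or M water stress replicate 2 (adjusted p up to 0.107), and ATCSLC12 fell under 2-fold without WT water stress replicate 3 or M water stress replicate 1 or 2 (-0.95 at the least). The cellulose synthases CESA1 (-0.73, adjusted p = 0.0113, and -0.48, adjusted p = 0.0352) and CESA3 (-0.60, adjusted p = 0.0153) passed the test at less than 2-fold. Under control the differences of XT2 and IRX9 were 0.13 and 0.26. With single arrays left out the list had 1 call without WT water stress replicate 3, 2 without M water stress replicate 2 and 3 to 6 otherwise, all lower.

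Of the regulators of carbon metabolism 4 of 9 probe sets were repressed, beside 0.455% of all kept, with a list median of -1.04. The study chose this list in the same way as the cell wall list. RAP2.12, an ethylene response factor that in Arabidopsis activates hypoxia genes, had the smallest adjusted p of all kept probe sets. It read 13.19, 13.09 and 13.34 in WT and 11.82, 11.96 and 11.67 in M on Ta_10130_1_S1_at. Each group was tight, and a wide gap lay between them. The difference was -1.39 (SE 0.10, adjusted p = 0.000117), 2.62-fold, against -0.22 under control, and stress minus control was 1.06 in WT and -0.11 in M. The call held without any single array (adjusted p up to 0.00157).

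BZIP63 is a transcription factor that in Arabidopsis acts downstream of the energy sensor kinase SnRK1. TaAffx_18447_3_S1_s_at read 10.95, 10.33 and 11.27 in WT and 9.62, 9.85 and 9.32 in M, and TaAffx_18447_5_S1_s_at read 11.55, 11.43 and 11.87 in WT and 10.48, 10.50 and 10.74 in M. Both were without overlap and repressed, with differences of -1.26 (SE 0.21, adjusted p = 0.0114) and -1.04 (SE 0.14, adjusted p = 0.00373). The former held without any single array, and the latter fell under 2-fold without WT water stress replicate 3 or M water stress replicate 1 (-0.92 at the least). A further probe set of that cluster number, TaAffx_18447_1_S1_at, was just under 2-fold at -0.99 (adjusted p = 0.00366). RAP2.7, an AP2-type repressor of flowering in Arabidopsis, read 9.66, 9.79 and 10.61 in WT and 8.74, 9.19 and 8.79 in M (-1.11, SE 0.25, adjusted p = 0.0336). That call was lost in 6 of the 12 fits without 1 array (adjusted p up to 0.118). One RAP2.8 probe set had a value of -1.09 (adjusted p = 0.124) and the other of -0.02, and neither was called. The list had 2 calls without WT water stress replicate 3 or M water stress replicate 1 and 3 to 5 without any other array, all lower.

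CIPK23, a kinase that in Arabidopsis regulates potassium and nitrate uptake on calcium signals, read 8.86, 9.07 and 9.14 in WT and 7.65, 7.28 and 7.89 in M on Ta_5041_1_S1_at. The M arrays lay well below WT, with -1.41 (SE 0.22, adjusted p = 0.00854), and the call held without any single array, although its other probe set Ta_5041_2_S1_a_at gave 0.04 (adjusted p = 0.963). The ABA receptor RCAR8 (PYL5) read 10.15, 10.05 and 10.98 in WT and 8.74, 9.17 and 9.61 in M (-1.22, SE 0.23, adjusted p = 0.0179). All M arrays were below all WT arrays, but the call was lost without WT water stress replicate 3 or M water stress replicate 2 (-0.92 at the least, adjusted p up to 0.0543), and the related RCAR10 had -0.74 (adjusted p = 0.0619). In the ABA response list 1 of 11 probe sets was called, beside 0.455% of all kept called lower. The study chose this list for its stress response on these same arrays. Its median was -0.64, or -0.19 without M water stress replicate 3, the lowest M array for 6 of the 11. The call was lost without WT water stress replicate 3 or M water stress replicate 2. The dehydrin RAB18, a marker of ABA action, had -0.64 to -0.79 on 3 probe sets, with adjusted p from 0.254 to 0.406.

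Enzymes at the branch of glutamate were repressed too, 2 of 6 probe sets, beside 0.455% of all kept. The list median was -0.94, or -0.57 without M water stress replicate 3. This list too was chosen by the study for stress responses that differed between the genotypes. Without WT or M water stress replicate 1 the list had 0 calls, and without WT or M water stress replicate 3 it had 1. Glutamate decarboxylase GAD3, which makes GABA, read 9.70, 9.35 and 8.95 in WT and 8.04, 8.49 and 7.99 in M on Ta_25990_1_A1_at (-1.16, SE 0.22, adjusted p = 0.0183). Glutamate dehydrogenase GDH2, which returns glutamate carbon to the citric acid cycle, read 11.14, 10.27 and 10.92 in WT and 9.70, 10.01 and 9.19 in M (-1.14, SE 0.24, adjusted p = 0.0280). Both pairs of groups stood apart, the latter by little, since WT replicate 2 was low. GAD3 was lost without WT or M water stress replicate 1 (adjusted p up to 0.0708), and GDH2 without WT or M water stress replicate 1 or 3 (adjusted p up to 0.110). The other GAD3 probe set, Ta_25990_1_A1_x_at, had -0.74 (adjusted p = 0.0863). ALDH7B4, an aldehyde dehydrogenase that detoxifies lipid aldehydes, read 11.05, 10.94 and 11.58 in WT and 10.48, 10.07 and 9.72 in M (-1.10, SE 0.25, adjusted p = 0.0348), without overlap, a call lost in 7 of the 12 fits without 1 array (adjusted p up to 0.140). Of the same cluster number, a further ALDH7B4 probe set, Ta_2107_3_S1_at, had -0.77 (adjusted p = 0.105) and the unnamed Ta_2107_2_S1_at had 0.83 (adjusted p = 0.241). Lysine degradation enzyme LKR/SDH (-0.76, adjusted p = 0.0200) and the branched-chain enzymes MCCB (-0.64, adjusted p = 0.0322) and BCE2 (-0.65, adjusted p = 0.0350) passed at less than 2-fold.

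Several lists gave large values but 0 calls. In the glyoxylate cycle, by which fatty acid carbon is turned to sugars, malate synthase MLS had -1.85 (Ta_23970_1_A1_x_at, adjusted p = 0.126). Isocitrate lyase ICL on TaAffx_79139_1_S1_at read 8.94, 8.57 and 10.90 in WT and 8.65, 7.92 and 5.24 in M. The groups overlapped, WT replicate 3 and M replicate 3 were the extremes, and -2.20 was not called (adjusted p = 0.335). That probe set is from the list of 17 carbohydrate probe sets. The ICL probe sets of the glyoxylate list, which the study reports as repressed in M, were not called here either. None had a value below that of MLS. In the detoxification list of 20 the median was 0.03, with 10 values higher and 10 lower, and it was between -0.05 and 0.15 without single stress arrays. Without M water stress replicate 3, 1 of the list was called higher. Its ends were APX4, which the study names as ascorbate peroxidase 4, and a glyoxalase I family protein. APX4 read 5.94, 6.54 and 5.77 in WT and 8.76, 7.29 and 7.59 in M, apart but not called (1.80, adjusted p = 0.0699). The glyoxalase on Ta_8571_1_S1_x_at had -2.02 (adjusted p = 0.0977), and on its own M replicate 3 read 3.75. M replicate 3 was the lowest M array in 14 of the 20. The jasmonic acid list of 9 (median -0.26), the ethylene list of 6 (-0.24), the proline list of 2 (-0.54) and the list of 8 WRKY and other transcription factors (-0.63) had 0 calls each with limma. Without WT water stress replicate 1 the jasmonic acid median turned to 0.11, and without M water stress replicate 3 those of ethylene and proline were -0.08 and -0.27. For the transcription factors it was -0.29 without M water stress replicate 1, and 1 was called without WT water stress replicate 2 and 2 without M water stress replicate 3. At an unadjusted p under 0.05 with 2-fold there were 1 in the glyoxylate list, 3 in detoxification, 1 in jasmonic acid and 0 in the others.

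**Figure D3:**
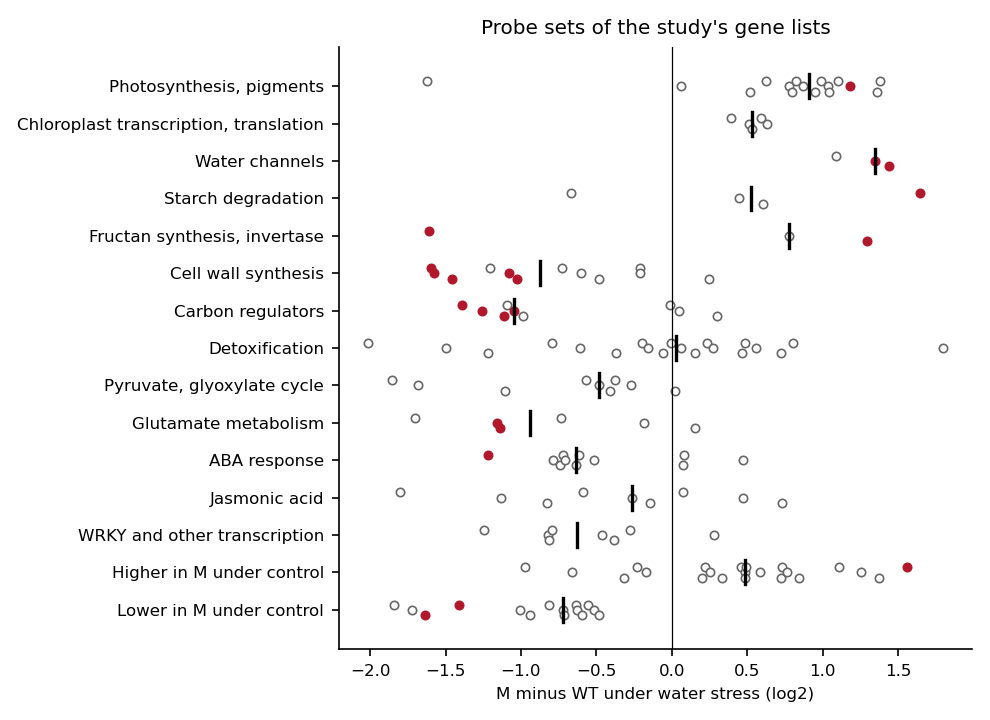
M minus WT under water stress (log2, horizontal axis) for kept probe sets of 15 lists from the tables of the study, 1 point per probe set, filled red where called and open where not, with a black bar at the median of each list. Water channels and photosynthesis lie mostly to the right of 0 and cell wall synthesis and carbon regulators mostly to the left.

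Over all tables of the study, 204 of 207 listed probe sets were kept. Of these, 7 were called higher, beside 0.252% of all kept, 17 lower, beside 0.455%, and 180 were not called. The study drew up most of these tables from stress responses measured with the same arrays, many of them chosen because they differed between the genotypes. Their counts are therefore no independent evidence of direction. The lists of genes that differed under control were chosen on the control arrays, which are other arrays than those compared here. Their control values are those they were chosen by, so smaller values under stress are no result in themselves. Of the 22 kept probe sets listed as induced in M under control, 17 had higher values in M under stress, beside 52% of all kept. The median was 0.48 against 1.66 under control, and 1 was called, GLP2b, beside 0.252% of all kept called higher. That median was 0.27 without WT water stress replicate 2. Chitinase 3, an enzyme of defense against fungi, stood at 0.22 under stress against 2.47 under control. Of 15 listed as repressed, 15 had lower values, beside 48% of all kept, with a median of -0.72 against -1.41 under control. Of the 15, 2 were called lower, beside 0.455% of all kept. They were an endonuclease on Ta_5497_1_A1_x_at (-1.41, adjusted p = 0.0444), at 10.76, 10.05 and 11.19 in WT and 9.80, 9.32 and 8.65 in M, and a gene of unknown function on Ta_7543_1_S1_at (-1.63, adjusted p = 0.00751), at 11.67, 11.13 and 11.58 in WT and 10.02, 9.63 and 9.83 in M. The groups were close for the endonuclease, whose call was lost in 9 of the 12 fits (adjusted p up to 0.170), and far apart for the unknown gene, whose call held in all 12. A dehydrin, WZY1-1, overlapped, with -0.51 (adjusted p = 0.743).

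Most called probe sets had no gene name in the sources used: 23 of the 174 were named, 12 carried a locus number and 141 had neither, where GLP2b and IRX9 carried both. The largest induction was on Ta_18567_1_S1_at, which read 1.50, 2.04 and 0.16 in WT and 4.97, 4.44 and 5.70 in M, a difference of 3.80 (SE 0.72, adjusted p = 0.0176). Its WT arrays lay near the bottom of the scale, and with 32 added the difference was 0.92 (adjusted p = 0.0836). Ta_27036_1_S1_at came next with 2.79 (SE 0.67, adjusted p = 0.0453), reading 3.19, 2.46 and 2.27 in WT and 4.72, 7.24 and 4.34 in M, where M replicate 2 was far above the others (1.10 with 32 added, adjusted p = 0.153). It was lost in 11 of the 12 fits, whereas Ta_18567_1_S1_at was called in all 12. The largest repression was at locus LOC778415 (Ta_21124_1_S1_x_at), with 6.85, 7.31 and 7.62 in WT and 4.36, 3.92 and 2.97 in M (-3.51, SE 0.80, adjusted p = 0.0355). On the control arrays of both genotypes it was between 2.42 and 4.16, so only the WT water stress arrays were high, and the call was lost in 6 of the 12 fits (adjusted p up to 0.171).

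Ta_16423_1_S1_at read 7.79, 7.55 and 7.87 in WT and 3.54, 3.09 and 6.90 in M (-3.22, SE 0.73, adjusted p = 0.0354). M replicate 3 was near WT, and without it the difference was -4.42 (adjusted p = 0.000197), but the call was lost in 9 of the other fits (adjusted p up to 0.120). More even was Ta_21659_1_A1_at, at 11.13, 11.33 and 11.73 in WT and 9.58, 9.38 and 9.06 in M, a 4.16-fold difference (-2.06, SE 0.22, adjusted p = 0.00169). On the control arrays of both genotypes it was between 8.21 and 8.94, and stress minus control was 2.72 in WT and 0.78 in M. The locus LOC542862 (Ta_1197_1_S1_at) read 9.88, 10.22 and 9.85 in WT and 11.40, 11.05 and 11.10 in M (1.20, SE 0.13, adjusted p = 0.00169), while its WT and M control arrays were between 11.08 and 11.39. WT water stress was here the group that stood low. The pair of probe sets Ta_21659_1_A1_at and Ta_1197_1_S1_at was singled out after their values were seen.

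Under control 0 probe sets were called between the genotypes with limma, with 222 at an unadjusted p under 0.05 and 2-fold, or 0.903%. Under control, 44 of the 62 probe sets induced under stress had higher values in M, and 58 of the 112 repressed had lower values. The median difference under control was 0.11 for the induced and -0.02 for the repressed probe sets. Over all kept probe sets it was -0.01, so at least as many of those lay below 0 as above. Both the median and the count of the repressed were thus close to the background. The difference between the genotype effects, tested as the interaction with water treatment, was called for 39 probe sets (0.159%), of which 9 were positive (0.0366%) and 30 negative (0.122%). Among the 62 induced probe sets 5 passed it, and among the 112 repressed 14 did. The interaction contains the stress difference by which these were picked, so these counts are raised by that choice and are no independent evidence. RAP2.12 had an interaction of -1.16 (SE 0.14, adjusted p = 0.0335), BZIP63 on TaAffx_18447_1_S1_at of -1.15 (adjusted p = 0.0342) and LOC542862 of 1.11 (SE 0.19, adjusted p = 0.0380). The BZIP63 probe set that passed the interaction was not itself called under stress (-0.99), and those that were called under stress did not pass it (TaAffx_18447_3_S1_s_at, adjusted p = 0.116, and TaAffx_18447_5_S1_s_at, adjusted p = 0.0519). PIP2;2 missed it narrowly, with 1.24 (TaAffx_8804_1_S1_s_at, adjusted p = 0.0519). Without any 1 of WT control replicates 1, 2 and 3, M control replicates 1 and 3, WT water stress replicate 3 and M water stress replicate 2, 0 interactions were called.

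The stress response of the called probe sets can be set side by side with the genotype difference, though both use the same stress arrays. Probe sets were called because M and WT differed on these arrays. Unlike stress responses in the genotypes thus follow in part from that choice, and the counts are no independent evidence. Of the 62 induced in M, 30 were downregulated by stress in WT and 1 upregulated, and 9 were downregulated and 13 upregulated in M. Of the 112 repressed in M, 55 were upregulated by stress in WT and 1 downregulated, and 11 were upregulated and 37 downregulated in M. Over all kept probe sets stress changed 7.27% in WT, 3.07% up and 4.19% down, and 8.91% in M, 3.42% up and 5.49% down.

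**Figure D4:**
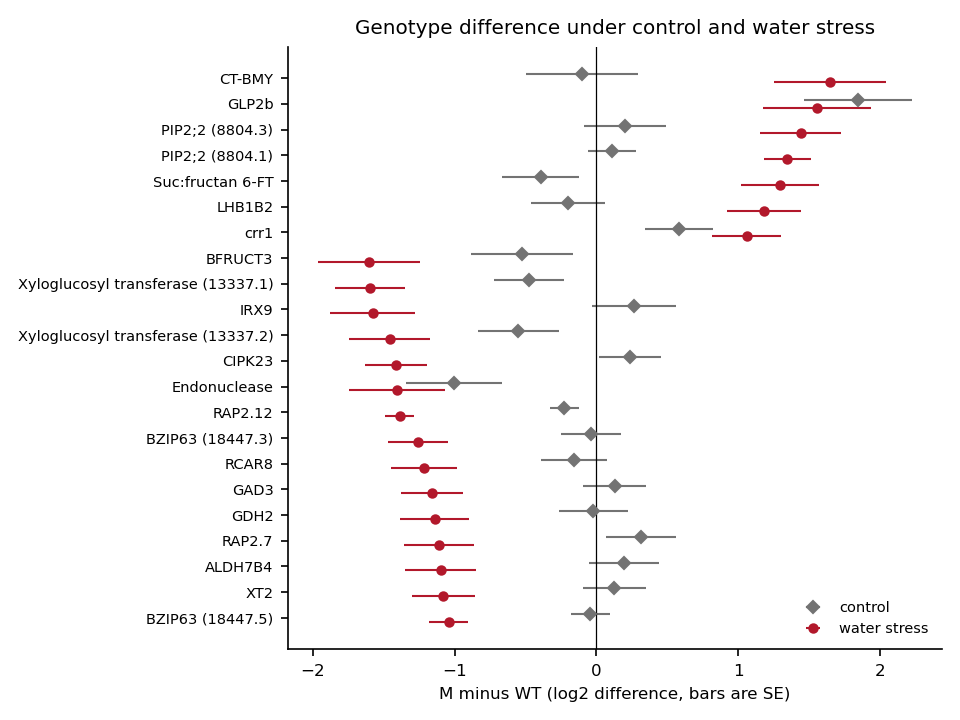
M minus WT (log2 difference, horizontal axis) for the 22 named probe sets, with gray diamonds for control and red circles for water stress and bars of 1 SE. GLP2b and the endonuclease have differences of like size and sign in both treatments, and PIP2;2, RAP2.12 and BZIP63 lie near 0 under control.

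How far the result depends on single arrays was tested by leaving out each array in turn. The count of 174 became 123, 290 and 75 without WT water stress replicates 1, 2 and 3, and 134 and 283 without M water stress replicates 2 and 3. Without M water stress replicate 1 the count stayed close, but only 109 of the 174 were among the calls. Without a control array, which enters only through the shared spread, it was 135 to 145. Of the 174, 60 were among the 75 called without WT water stress replicate 3 and 142 among the 290 called without WT water stress replicate 2. Called in every one of the 12 fits were 39, of which 16 were induced and 23 repressed. They include PIP2;2 (TaAffx_8804_1_S1_s_at), Ta_13337_1_S1_at, CIPK23, RAP2.12 and BZIP63 (TaAffx_18447_3_S1_s_at), that is 5 of the 22 named probe sets. At the other end CT-BMY was lost in 11 of the 12 fits and GLP2b and the endonuclease in 9 each. No called probe set changed sign in any of them, but none could, since the stress arrays of the genotypes did not overlap on any.

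M water stress replicate 3 and WT water stress replicate 2 stood apart from their groups. On M replicate 3, 1137 kept probe sets were more than 2-fold below both other replicates, and on WT replicate 2 there were 447, where the other 10 arrays had 126 to 281. WT replicate 2 was the lowest WT array for 70 of the 112 repressed probe sets (62.5%), against 37.5% of all kept. Replicates were more spread under stress than under control, with a root mean variance of 0.36 in WT and 0.42 in M against 0.29 and 0.30. A model of the 6 stress arrays alone, which does not borrow the spread of the control arrays, called 5 probe sets, all repressed: RAP2.12 (adjusted p = 0.0386) and Ta_13337_1_S1_at, Ta_21659_1_A1_at, Ta_7543_1_S1_at and Ta_9113_3_S1_x_at (each adjusted p = 0.0394).

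**Figure D5:**
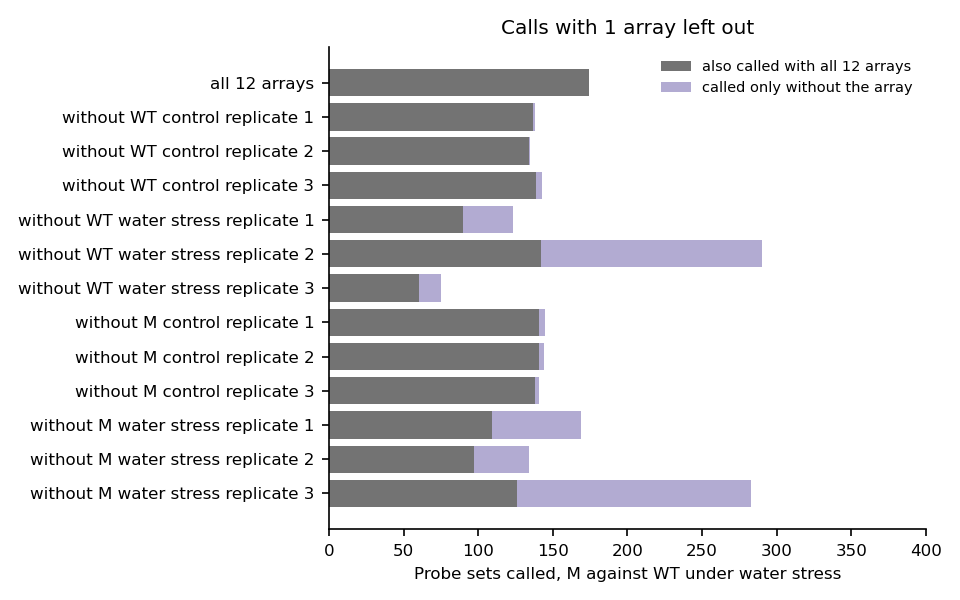
Number of probe sets called between M and WT under water stress (horizontal axis) with all 12 arrays and with 1 array left out (rows). Dark bars are calls shared with the 174 of all arrays and light bars are calls gained, and counts range from 75 without WT water stress replicate 3 to 290 without WT water stress replicate 2.

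Some technical measures differed between the genotypes or arrays. The median intensity of all probe sets was 50.5, 58.6 and 55.2 on the WT stress arrays and 66.5, 62.7 and 62.8 on the M stress arrays, all of the latter higher, and its part in the calls was not tested beyond quantile normalization, which gave 187 calls. Spiked poly-A transcripts averaged 8.88, 9.28 and 9.09 in WT and 8.96, 8.71 and 9.55 in M, a difference of -0.01 (exact permutation test, two-sided, p = 1, where 3 against 3 arrays can give no less than 0.1). The log2 ratio of 3′ to 5′ signal of spiked dap was 2.57, 2.0 and 1.89 in WT and 1.41, 1.79 and 1.66 in M, without overlap (exact permutation p = 0.1, adjusted p = 0.8 over 8 measures), and 2.71 to 3.10 on the control arrays. For glucose-6-phosphate dehydrogenase the ratio was highest on WT replicate 2 (3.98) and M replicate 3 (3.92), and between 2.16 and 3.40 on the other stress arrays. For the elongation factor Ta-ef1a it was -0.34, -4.83 and -2.52 in WT and -0.44, 0.24 and -0.48 in M, a difference of 2.34 (exact permutation p = 0.3, adjusted p = 0.8), and -0.63 to 0.81 on the control arrays. For Ta-gapdh it was -5.06 on WT replicate 2, -1.88 to -0.70 on the other stress arrays and -3.15 to -1.54 on the control arrays. WT replicate 2 was thus the lowest stress array in both of these. The part of these measures in the genotype difference was not tested.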

How the data were processed

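The values are deposited MAS5 intensities on a linear scale, which the authors scaled array by array (2% trimmed mean near 500.3 on each of the 12 arrays); the MAS5 version is not given in the sources used here. The methods of the study describe RMA values, detection calls and a Welch test, but the table used here holds MAS5 values without calls. RNA extraction and labeling kits differ between the labels and the methods. Intensities were log2 transformed without an offset, 111 control probe sets were left out, and 4 group means were fitted over 12 arrays with limma 3.58.1 (R 4.3.3, intensity trend), so all groups share the spread. Columns of no sample in the series numbered 0. Called probe sets with a gene name and stress arrays apart were named, up to 15 in each direction, with the 2 largest without a name, other probe sets of a named gene, listed probe sets where a list is described, and named called interactions. ATCSLC12 is shown with its list. Members and lists were chosen with earlier results of these data known. Control transcripts were compared by exact permutation. The number of arrays limits the precision of each value. Alternatives are given below.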

Additional observations from a re-analysis of the deposited data

Results flagged for a closer look

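For 3 of the probe sets described above, the genotype difference under water stress differed from that under control. The test was of the difference itself (limma interaction, adjusted over all kept probe sets). Only the named or shown probe sets followed through other settings were searched for this, which leaves out Ta_21659_1_A1_at. Many of them were picked for their stress difference, which is a part of the interaction. RAP2.12 (Ta_10130_1_S1_at) had an interaction of -1.16 on the log2 scale (adjusted p = 0.0335), with M lower on all 3 stress arrays. BZIP63 (TaAffx_18447_1_S1_at) had -1.15 (adjusted p = 0.0342), but this probe set was not called under stress (-0.99), and the other BZIP63 probe sets did not pass the interaction (adjusted p = 0.116 and 0.0519). LOC542862 (Ta_1197_1_S1_at) had 1.11 (adjusted p = 0.0380), with M higher on all 3 stress arrays. No interaction was called with the replicate block or without the intensity trend.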

How the results depend on the processing

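The number of probe sets called under water stress (174) was within 1.5 times of that with quantile normalization (187), no filter (145), a filter on the highest 40% (160), a filter on the stress groups (173), 32 added (161), no intensity trend (129), robust variances (170), the methods' Welch test at unadjusted p (202), without _x_at and _s_at probe sets (126), and with replicate number as a block (139, of which 135 shared). It was 5 with the stress arrays only, 479 with array weights, 81 with group weights, 0 with the methods' Welch test after adjustment (202 at unadjusted p), 492 at unadjusted p with 2-fold and 710 with no fold threshold. Alternatives chosen after seeing the data gave 363 (stress arrays only, array weights) and 35 (stress arrays only, without M water stress replicate 3). Leaving out single arrays gave 75 to 290. The interaction count (39) was 19 with no filter, 0 with no trend, 364 with array weights, 671 at unadjusted p, 68 with no fold threshold, 0 with the replicate block, and 0 to 148 with single arrays left out. Under control the count (0) was 2 with no filter, 2 with 32 added, 71 with array weights, 40 with group weights, 222 at unadjusted p, 1 without _x_at and _s_at probe sets, and 0 to 12 with single arrays left out. Listed probe sets called (24) were 13 with no trend, 3 with stress arrays only, 37 with array weights, 10 with group weights, 0 with the adjusted Welch test, 43 at unadjusted p, 37 with no fold threshold, 8 with stress arrays only without M water stress replicate 3, and 8 to 33 with single arrays left out. Deviations of same-numbered WT and M stress arrays correlated at -0.13, -0.16 and -0.19. Being deviations from means of 3 arrays, they are tied to each other and cannot show whether the numbers pair the samples. Of 1328 values of named probe sets under other settings, 1021 kept their side of the threshold, 270 lost a call, 37 gained one and 0 changed sign. Many of these settings leave the log2 difference itself as it was, so a change of sign was not possible there. The causes were not tested. With 3 arrays a group, and groups that differ in spread, the count itself is not firm.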

Other observations

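Probe sets that share a cluster number in their names can be compared with each other. The 174 called probe sets fall into 159 such clusters, of which 66 hold at least 1 other kept probe set, and in 14 of the 66 more than 1 was called. An example where both were called is the LOC542862 pair (Ta_1197_1_S1_at, 1.20, and Ta_1197_1_S1_x_at, 1.13). Of the 3 BZIP63 probe sets 2 were called, and the third, TaAffx_18447_1_S1_at, had -0.99. An example where only 1 was is CIPK23 (-1.41 and 0.04).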
